A study of Mus musculus with 10 samples.

Results

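The genes described here are 38 regulators of alternative splicing, taken as a group around Rbfox2 and named by family: RBFOX, MBNL, CELF, PTBP, STAR, TIA, ESRP and RBM proteins, SR proteins with their TRA2 relatives, hnRNP proteins, and the factors that recognise the 3' splice site. Each gene was read from its probe set with the highest mean log2 intensity over all 10 arrays, among probe sets that carry a single gene symbol. On this rule 36 of the 38 were measured, of 18193 genes in all. The probe sets of Rbm10 carry another gene symbol as well, and none is named for Srsf7 here, so 2 members have no value. Rbfox2 entered the group because of its large difference between the arrays compared here, so its values are given as a description with no test. The other members were listed for their family, with results of the same arrays already known.

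Splicing regulators bind short motifs in pre-mRNA and decide whether a nearby exon is kept or skipped. RBFOX proteins bind GCAUG and act by position, promoting an exon from downstream and repressing it from upstream. MBNL and CELF proteins often act on the same exons in opposite directions, a balance best known from muscle and heart. SR proteins mostly promote exon inclusion, while hnRNP proteins and PTBP proteins mostly repress it, and the U2AF proteins with Sf3b1 define the 3' splice site. The arrays measure the amount of transcript, not which exons it holds, so splicing itself was not measured.

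The arrays compared murine Mll-AF9 leukaemia cells of line 4166 that carried a lentiviral short hairpin RNA (shRNA) against Meis1, a homeodomain factor on which such leukaemias are known to depend, with the same cells carrying an empty lentiviral vector. All cells were transduced, selected with puromycin, cultured with interleukin 3 and collected at 48 h, and the labels pair the samples by number (5 arrays with the shRNA, 5 with the vector). The hairpin is named only by its target. Whether each sample was grown on its own is not stated, and p-values here reflect the scatter among these arrays, which may be technical. Values below are deposited intensities on a linear scale unless a log2 level or change is named, and a change is shRNA minus vector. Meis1 itself read 193, 221, 127, 142 and 140 in shRNA samples 1 to 5, against 396, 413, 297, 333 and 290 in vector samples 1 to 5. The groups did not overlap, and limma gave a change of -1.09 on the log2 scale (SE 0.08, adjusted p = 0.000636). As the mean of its probe sets Meis1 changed by -0.29 (adjusted p = 0.046), and with a measure of RNA integrity added to the fit, described next, by -0.98 without passing (adjusted p = 0.186).

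Of 12 myeloid leukaemia markers, 10 had a mean log2 level above 5, and Cd33 and Csf1r, at 4.25 and 3.73, did not. Mpo, the peroxidase of myeloid granules, lay between 8148 and 12200 with the shRNA and between 9507 and 13700 with the vector. Elane, Ptprc and Meis1, the target of the hairpin, passed the adjusted p threshold of 0.05, all lower with the shRNA. Across all genes 4.06% passed, and among those with a mean log2 level above 5 it was 8.75%. Of the other 9 markers, Itgam, Spi1, Cebpa and Csf1r had changes above 0 (0.45, 0.33, 0.26 and 0.18) and 5 below 0. The summed intensity of all 12 was 21544 to 35708 with the shRNA and 24182 to 41025 with the vector, lower in all 5 pairs. None of the 7 epithelial, 7 neuronal, 6 measured erythroid and megakaryocytic or 8 measured lymphoid markers had a mean log2 level above 5, and of 8 fibroblast and stromal markers only Thy1 did, at 9.56. Their summed intensities were 37.2 to 48.4 with the shRNA and 36.7 to 42.3 with the vector for the epithelial list, and 43.0 to 52.0 with the shRNA and 39.7 to 46.9 with the vector for the neuronal list. For the fibroblast list they were 295 to 1184 with the shRNA and 392 to 1257 with the vector. The erythroid and megakaryocytic list summed to 39.0 to 47.7 with the shRNA and 34.6 to 54.0 with the vector, and the lymphoid list to 45.0 to 55.7 with the shRNA and 42.6 to 48.8 with the vector. Their part in the results was not tested. The neuronal marker Nefl was the only gene of these 5 lists past the threshold, at 9.24 with the shRNA and 6.11 with the vector on average (log2 change 0.57, adjusted p = 0.0199 by limma). In bulk RNA, fewer cells of a type and less RNA per cell cannot be told apart. The array carries control probe sets for the 3' and 5' ends of Gapdh and actin, whose signal ratio reflects how intact the RNA was. On the log2 scale this 3'/5' ratio was 0.37 ± 0.02 with the shRNA and 0.28 ± 0.06 with the vector (SD, n = 5), higher in all 5 pairs (exact two-sided sign-flip permutation p = 0.0625, the smallest that 5 pairs allow).

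Rbfox2 gave intensities of 79.9, 81.6, 291, 191 and 309 in shRNA samples 1 to 5 with its brightest probe set, 1418245_a_at. In vector samples 1 to 5 it gave 16.2, 18.1, 52.1, 24.5 and 95.6. Every shRNA sample stood above its own partner, yet the groups overlapped, because vector sample 5 lay above shRNA samples 1 and 2. The log2 change was 2.32 (SE 0.16), a 5.00-fold difference, and the pair differences ran from 1.69 in pair 5 to 2.96 in pair 4. Pair 5 also had the smallest difference in the 3'/5' ratio, 0.0124 on the log2 scale, and pair 4 the largest, 0.188. With that ratio added to the fit the Rbfox2 change was 1.71 (SE 0.16). The ratio was higher with the shRNA in all 5 pairs, so such a fit tells the ratio and the shRNA apart poorly. The part of the ratio in the difference was not tested.

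The other Rbfox2 probe sets were dim. The bacterial Trpn control probe sets, which should detect nothing in these cells, averaged 3.65 to 4.05 with the shRNA and 3.56 to 4.12 with the vector. For Rbfox2, 1418246_at read 4.90, 4.49, 4.93, 4.67 and 7.38 with the shRNA and 5.60, 5.03, 5.40, 5.20 and 4.73 with the vector. Likewise for Rbfox2, 1418247_s_at read 4.64, 5.50, 4.74, 4.21 and 4.65 with the shRNA and 4.11, 5.00, 4.36, 4.05 and 4.37 with the vector. In both the groups overlapped, with log2 changes of -0.000315 and 0.12. Probe set 1434938_at read 7.36, 12.1, 8.72, 11.4 and 7.15 in shRNA samples 1 to 5, against 5.87, 6.17, 7.20, 4.52 and 7.71 in vector samples 1 to 5. It was higher in 4 of 5 pairs, with a log2 change of 0.56 (SE 0.19). The 5.00-fold difference was thus seen in 1 of the 4 Rbfox2 probe sets, as the plot by probe set shows. The paralogs read close to the Trpn controls: Rbfox1 averaged 5.04 with the shRNA and 5.34 with the vector, and Rbfox3, a marker of neurons, 6.71 with the shRNA and 6.70 with the vector.

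**Figure D1:**
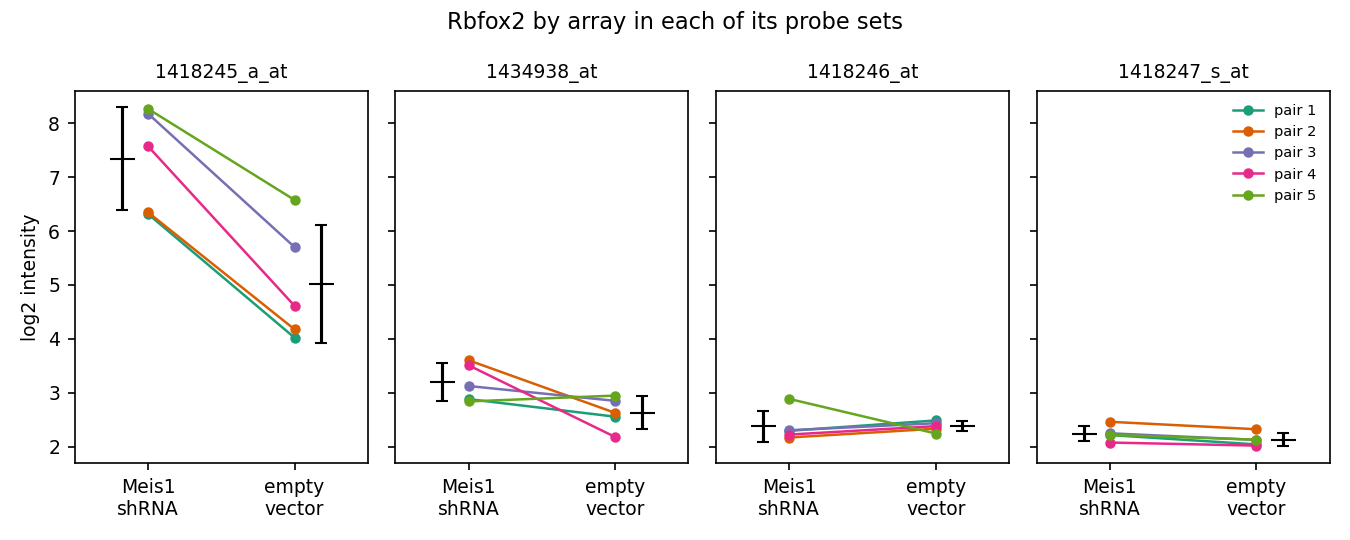
Log2 intensity of Rbfox2 in each of its 4 probe sets, with the Meis1 shRNA on the left and the empty vector on the right. Lines join the samples of a pair, and black bars give the mean and SD over 5 arrays; only 1418245_a_at rises clear of the dim range, with a change of 2.32.

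Rbfox2 was also the member that varied most between vector arrays. Its log2 level had an SD of 1.09 over the 5 vector samples, against a median of 0.09 among the other 35 measured members. Rbfox2 was dim with the vector, at a mean log2 level of 5.02, and this comparison was not matched by level. Mbnl2 and Celf1 came next, with SDs of 0.35 and 0.33. Celf1 put the vector samples in the same order as Rbfox2, with samples 1 and 2 lowest and sample 5 highest. Over so few arrays that order is a description only.

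Rbfox2 is left out of the next counts, since it was chosen for this difference. Of the other 35 measured members, 2 were higher (Celf1 and Hnrnpd), 2 were lower (Celf2 and Mbnl3) and 31 did not pass in a paired limma fit over all genes with an adjusted p threshold of 0.05. Across all genes 4.06% passed, 1.08% higher and 2.98% lower. Dim genes seldom pass, and 35 of the 36 members had a mean log2 level above 5. Among the 6721 genes above that level, 8.75% passed in the same fit, 2.14% higher and 6.61% lower. The 4 of 35 make 11.4%, which is near that background and is no result about the group. The median log2 change of all 36 members, Rbfox2 included, was -0.02, against 0.00 for all genes and -0.04 for genes above that level.

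**Figure D2:**
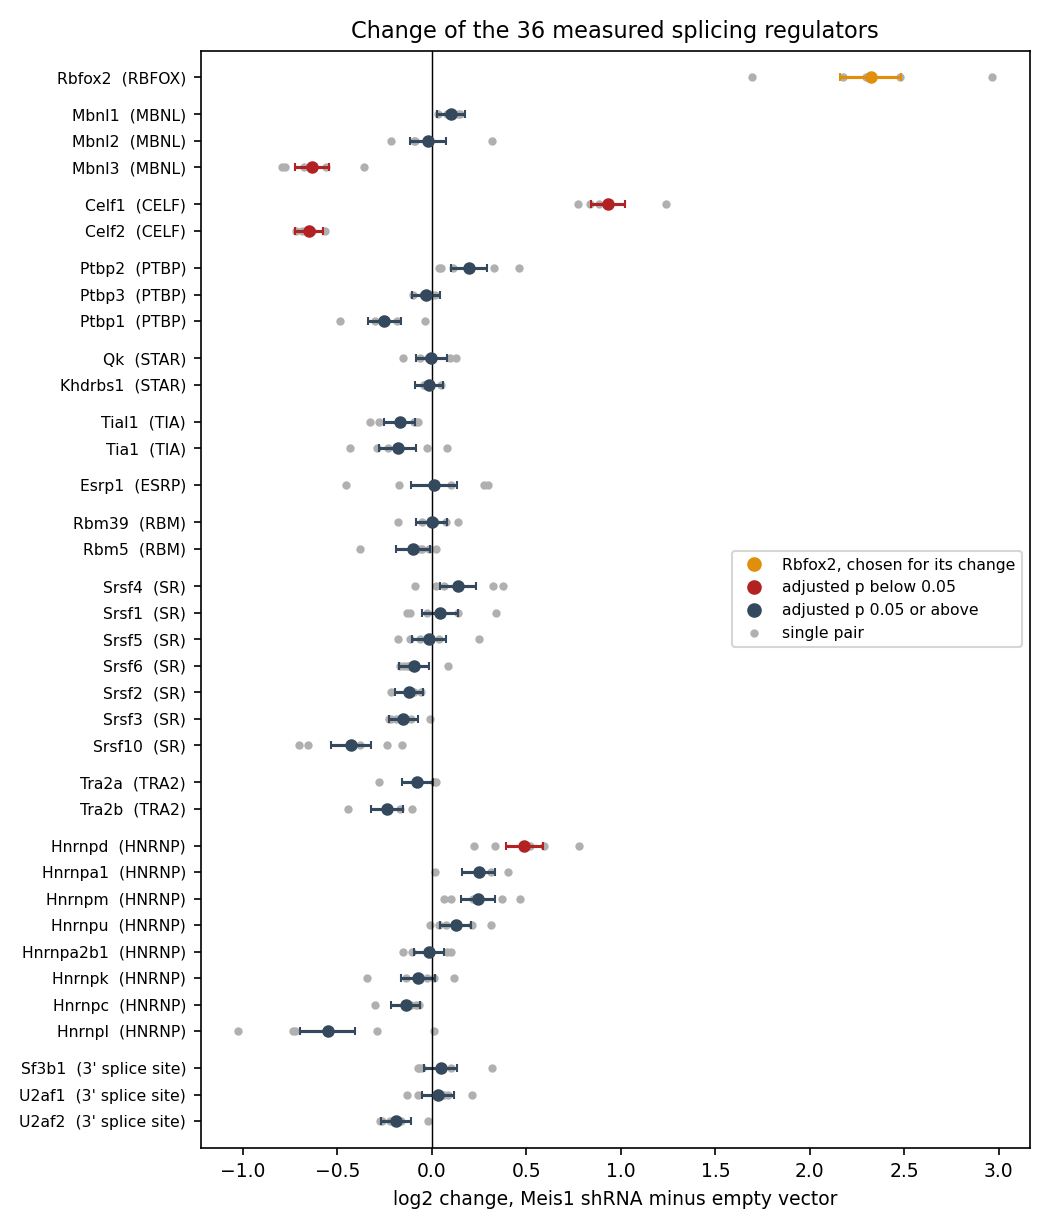
Log2 change of each of the 36 measured members, grouped by family, with the SE of the limma fit as bars and the 5 pair differences as grey points. Red marks members past the threshold, orange marks Rbfox2 at 2.32, and most other members lie close to 0.

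The CELF paralogs moved in opposite directions. Celf1, which binds GU-rich RNA and also promotes decay of such transcripts in the cytoplasm, read 1554, 1639, 2976, 2163 and 2889 in shRNA samples 1 to 5. In vector samples 1 to 5 it read 909, 918, 1260, 1134 and 1568. It rose in every pair, by 0.93 on the log2 scale (SE 0.09, 1.91-fold, adjusted p = 0.00158 by limma), although vector sample 5 lay within the range of the shRNA group. Celf2, which has a role in T cell and heart splicing, read 755, 731, 708, 773 and 844 in shRNA samples 1 to 5, against 1178, 1175, 1100, 1271 and 1251 in vector samples 1 to 5. The groups did not overlap and it fell in every pair, by 0.65 on the log2 scale (SE 0.07, 1.57-fold, adjusted p = 0.00334 by limma). Both passed without each pair in turn. With the 3'/5' ratio added to the fit neither passed, with changes of 0.92 for Celf1 (SE 0.18, adjusted p = 0.314) and -0.59 for Celf2 (SE 0.14, adjusted p = 0.463).

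The bright probe sets of Celf2 gave the same direction, and those of Celf1 did not. Celf2 had 7 probe sets, 3 of them with a mean log2 level above 5, and its dim ones are not given singly. The other bright Celf2 probe sets, 1423895_a_at and 1450069_a_at, changed by -0.80 and -0.52 (adjusted p = 0.0019 and 0.0146, here over all probe sets by limma), and neither overlapped between groups. For Celf1 the probe set 1426408_at read 90.0, 74.5, 160, 133 and 92.0 with the shRNA and 52.9, 59.3, 62.7, 75.1 and 74.8 with the vector, a log2 change of 0.71 (SE 0.15, adjusted p = 0.0482). But Celf1 probe set 1427413_a_at, also bright, averaged 280 ± 18.4 with the shRNA and 308 ± 30.5 with the vector (SD, n = 5), a change of -0.14 (SE 0.08, adjusted p = 0.518). As the mean of its 5 probe sets Celf1 changed by 0.29 and did not pass (adjusted p = 0.0777), while Celf2 as the mean of its own changed by -0.35 and passed (adjusted p = 0.0205). The files do not say which Celf1 transcripts each probe set detects.

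In the MBNL family 1 of 3 members passed. Mbnl3, the family member best known from immature muscle and placenta, read 221, 206, 213, 247 and 256 in shRNA samples 1 to 5. In vector samples 1 to 5 it read 326, 358, 340, 423 and 329, so the groups did not overlap. It fell by 0.63 on the log2 scale (SE 0.09, 1.55-fold, adjusted p = 0.0086 by limma) and passed without each pair in turn. Its probe set 1422836_at read 45.9, 52.4, 36.7, 42.3 and 31.3 with the shRNA and 132, 99.7, 45.1, 106 and 73.3 with the vector, lower in every pair but overlapping. This probe set and the dim 1442549_at changed by -1.06 and -0.69 (adjusted p = 0.0134 and 0.0282 over all probe sets). With the 3'/5' ratio added to the fit, Mbnl3 changed by -0.48 (adjusted p = 0.661).

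Mbnl1, the main splicing factor of the family in most tissues, averaged 6896 ± 514 with the shRNA and 6422 ± 372 with the vector (SD, n = 5), a log2 change of 0.10 (adjusted p = 0.551). Mbnl2 read 351, 283, 406, 467 and 450 with the shRNA and 281, 329, 412, 498 and 480 with the vector. Its change was -0.02 (adjusted p = 0.943), small beside the spread between samples of either group.

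**Figure D3:**
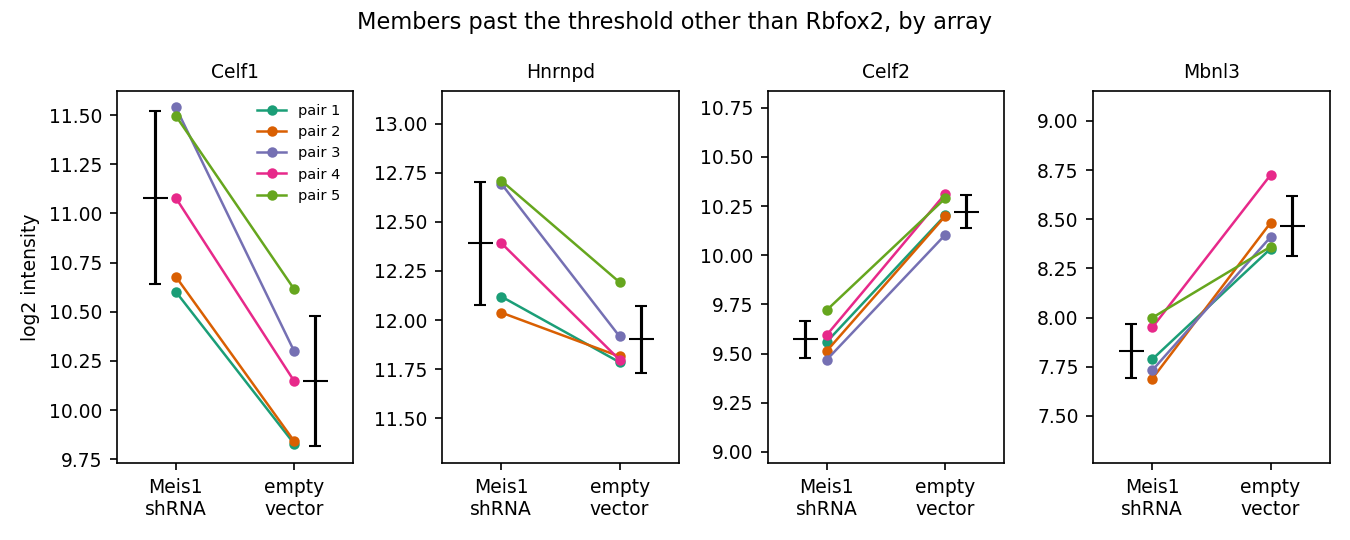
Log2 intensity by array of the 4 members other than Rbfox2 past the threshold, with the Meis1 shRNA on the left of each panel and the empty vector on the right; panels span the same log2 range. Lines join pairs and black bars give mean and SD over 5 arrays; Celf1 and Hnrnpd are higher with the shRNA in all 5 pairs, Celf2 and Mbnl3 lower.

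Promoter windows from RefSeq (GRCm38.p6, 250 bases before to 50 after the annotated start) are shown for the members past the threshold that had one to show where letters known from Meis1 binding lie. The core letters that MEIS factors are known to bind, TGACAG or CTGTCA on the other strand, are in capitals. Of the 5 Celf2 starts, the 1 window with a match is printed.
Celf1, chr2:90940147-90940446, plus strand: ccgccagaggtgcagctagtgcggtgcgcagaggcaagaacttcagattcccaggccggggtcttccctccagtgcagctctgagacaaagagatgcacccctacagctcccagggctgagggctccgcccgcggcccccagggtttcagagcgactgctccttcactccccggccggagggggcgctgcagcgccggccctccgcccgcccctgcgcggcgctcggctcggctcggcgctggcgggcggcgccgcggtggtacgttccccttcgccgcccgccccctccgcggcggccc
Celf2, chr2:6721613-6721912, minus strand: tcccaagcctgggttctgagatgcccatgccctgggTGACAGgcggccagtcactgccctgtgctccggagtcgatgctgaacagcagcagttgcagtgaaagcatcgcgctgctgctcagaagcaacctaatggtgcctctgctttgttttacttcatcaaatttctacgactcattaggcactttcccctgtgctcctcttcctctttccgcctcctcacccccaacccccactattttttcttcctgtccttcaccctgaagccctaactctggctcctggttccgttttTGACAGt
Mbnl3, chrX:51205941-51206240, minus strand: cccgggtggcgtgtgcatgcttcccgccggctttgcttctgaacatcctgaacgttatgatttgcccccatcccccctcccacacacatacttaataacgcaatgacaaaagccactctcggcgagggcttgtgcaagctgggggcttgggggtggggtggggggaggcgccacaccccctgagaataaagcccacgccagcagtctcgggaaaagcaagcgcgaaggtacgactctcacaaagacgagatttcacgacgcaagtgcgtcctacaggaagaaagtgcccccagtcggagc
Hnrnpd, chr5:99978889-99979188, minus strand: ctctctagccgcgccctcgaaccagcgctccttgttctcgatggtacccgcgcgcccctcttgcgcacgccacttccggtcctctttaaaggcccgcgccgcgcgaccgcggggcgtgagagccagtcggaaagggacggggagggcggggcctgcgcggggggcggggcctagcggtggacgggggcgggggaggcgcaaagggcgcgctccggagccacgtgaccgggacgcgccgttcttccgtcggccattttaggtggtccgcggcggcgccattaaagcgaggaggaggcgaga

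The Celf2 window held 2 matches to TGACAG, and the windows of Celf1, Mbnl3 and Hnrnpd held none. Of 44 windows for 33 members, 7 held a match, 15.9%, against 19.2% of all 32851 windows of this length. The PBX and HOX composite TGATTNAT, or ATNAATCA on the other strand, was in 0 of the 44 and in 3.22% of all windows. Neither motif contains the other. No window was at hand for Rbfox2, Esrp1, Khdrbs1, Ptbp3 and U2af2. A match is a description of letters, not a bound site.

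Of the 8 hnRNP genes 1 passed. Hnrnpd (AUF1), which binds AU-rich elements and controls transcript decay, read 4451, 4206, 6626, 5374 and 6698 in shRNA samples 1 to 5, against 3530, 3603, 3866, 3560 and 4680 in vector samples 1 to 5. It was higher in all 5 pairs, and vector sample 5 lay above shRNA samples 1 and 2. On the log2 scale it rose by 0.49 (SE 0.10, 1.40-fold, adjusted p = 0.0331 by limma). With any 1 of the 5 pairs left out it did not pass (adjusted p 0.0513 to 0.138), nor in a fit without the replicate block (0.111), nor with the 3'/5' ratio added (0.42, adjusted p = 0.807), nor averaged over its probe sets (0.21, adjusted p = 0.23). Its only other probe sets, 1457568_at and 1458273_at, were dim, at mean log2 levels of 3.94 and 2.49.

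Hnrnpl, which binds CA repeats and controls splicing of the leukocyte antigen Ptprc, read 439, 307, 347, 342 and 428 with the shRNA and 537, 512, 572, 695 and 425 with the vector. It was lower in 4 of 5 pairs and level in pair 5, with a log2 change of -0.55 that did not pass (SE 0.15, adjusted p = 0.0786). Without pair 5 it passed, at -0.69 (adjusted p = 0.0242), and without each other pair it did not (adjusted p 0.131 to 0.249). The Hnrnpl change was -0.14 with the 3'/5' ratio added (adjusted p = 0.957). Averaged over its 2 probe sets, of which 1 was bright, it was -0.22 (adjusted p = 0.218). Hnrnpl passed in limma with trend and robust eBayes (adjusted p = 0.0061), among genes above a mean log2 level of 5 (0.0384) and with a random block (0.0378). It did not pass without the replicate block (0.0596), or with quantile normalization or median centring (0.0989 and 0.0644). Hnrnpa1, a general repressor of exons, read 995, 885, 1052, 1099 and 1068 with the shRNA and 833, 876, 848, 831 and 900 with the vector. The groups overlapped, and it was higher in all 5 pairs without passing (log2 change 0.25, adjusted p = 0.17), and its other bright probe set, 1455305_x_at, changed by -0.06. Of the alternative fits, Hnrnpa1 passed only in limma with trend and robust eBayes (adjusted p = 0.0217). The remaining hnRNP genes were Hnrnpm (0.24), Hnrnpu (0.13), Hnrnpa2b1 (-0.02), Hnrnpk (-0.08) and Hnrnpc (-0.14), in log2 changes with adjusted p of 0.196 and above.

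None of the 7 measured SR genes passed, and 5 of them had changes below 0. Srsf10, an SR protein that represses splicing when dephosphorylated, read 677, 480, 652, 591 and 764 with the shRNA and 882, 782, 770, 931 and 853 with the vector. The groups did not overlap, yet the change of -0.43 missed the threshold (SE 0.10, adjusted p = 0.0629). Srsf10 passed without pair 5, at -0.49 (adjusted p = 0.0442), and not without each other pair (adjusted p 0.111 to 0.216). Its change was -0.25 with the 3'/5' ratio added (adjusted p = 0.892) and -0.19 averaged over its probe sets (adjusted p = 0.239). Srsf10 also passed in limma with trend and robust eBayes (adjusted p = 0.00288) and among genes above a mean log2 level of 5 (0.0241). It did not pass without the replicate block (0.0892), with a random block (0.0508), or with quantile normalization or median centring (0.0868 and 0.0547). Its 3 other bright probe sets changed by -0.26, -0.15 and 0.07, none past the threshold. The classical SR proteins Srsf1 (0.04), Srsf2 (-0.12), Srsf3 (-0.15), Srsf4 (0.14), Srsf5 (-0.02) and Srsf6 (-0.10) had log2 changes with adjusted p of 0.364 and above. Of the TRA2 activators, which bind GAA-rich enhancers, Tra2b averaged 2869 ± 170 with the shRNA and 3381 ± 123 with the vector (SD, n = 5), a log2 change of -0.24 (adjusted p = 0.172). Tra2a changed by -0.08 (adjusted p = 0.703).

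Among the PTBP proteins, repressors that bind pyrimidine-rich tracts, Ptbp1 read 2318, 2104, 2221, 2356 and 2524 with the shRNA and 2639, 2950, 2631, 2903 and 2588 with the vector. The groups did not overlap, but the change was small and did not pass (log2 change -0.25, SE 0.09, adjusted p = 0.177). Of the alternative fits, Ptbp1 passed only in limma with trend and robust eBayes (adjusted p = 0.00883). Ptbp2, the neuronal paralog, read 71.1, 66.6, 69.4, 67.6 and 107 with the shRNA and 65.8, 64.8, 55.3, 65.5 and 78.1 with the vector, a change of 0.20 (adjusted p = 0.32) with sample 5 highest in each group. Ptbp3 changed by -0.03 (adjusted p = 0.891).

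The other families did not pass either. The TIA proteins, which bind U-rich RNA just after the 5' splice site and also form stress granules, were at -0.18 for Tia1 and -0.17 for Tial1 (adjusted p = 0.386 and 0.325). Of the 3' splice site factors, U2af2, which binds the pyrimidine tract, changed by -0.19 (adjusted p = 0.256), its partner U2af1 by 0.03 and Sf3b1, the branch site factor, by 0.05 (adjusted p = 0.900 and 0.854). Rbm5, known for its role in splicing of apoptosis genes, changed by -0.10 (adjusted p = 0.638), and Rbm39, a relative of U2af2, by 0.00. The bright probe sets of Rbm5 ran from -0.54 to -0.10, none past the threshold. Khdrbs1 (Sam68), a STAR protein that links signalling to splicing, changed by -0.01 (adjusted p = 0.954). Esrp1, the epithelial regulator, averaged 4.62 with the shRNA and 4.52 with the vector, near the Trpn controls, a level at which a fall can hardly be detected.

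Qk, the STAR protein quaking, depended on the probe set. The brightest, 1451179_a_at, averaged 1724 ± 144 with the shRNA and 1724 ± 79.0 with the vector (SD, n = 5), a log2 change of 0.00 (adjusted p = 0.992). Probe set 1417073_a_at for Qk read 455, 408, 505, 520 and 658 in shRNA samples 1 to 5, against 720, 703, 728, 826 and 942 in vector samples 1 to 5. These groups did not overlap, and the change was -0.63 (SE 0.09, adjusted p = 0.00777, again over all probe sets). Qk is known to make several transcripts with different ends, but the files do not say which of them each probe set detects. Tia1 likewise had a probe set past the threshold that was not its brightest, 1416813_at, at 132 ± 15.9 with the shRNA and 175 ± 18.6 with the vector (SD, n = 5; log2 change -0.40, adjusted p = 0.0423). The dim probe set 1442745_x_at of Rbm39 averaged 32.9 ± 7.90 with the shRNA and 23.0 ± 5.48 with the vector (SD, n = 5; log2 change 0.52, adjusted p = 0.0484). These probe sets of Qk, Tia1 and Rbm39 were named after their values were seen.

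Such splits were few, but 25 of the 31 members that did not pass changed by less than 0.2 in size. Agreement among probe sets says little for those. The 36 members had 147 probe sets, 96 of them with a mean log2 level above 5. In 24 members at least 2 probe sets were that bright, and in 22 of these the changes of the bright probe sets lay within 0.5 of each other on the log2 scale. The exceptions were Celf1, with a spread of 1.07, and Qk, with 0.63. Within 0.5, bright probe sets still reached -0.54 for Rbm5, -0.37 for Srsf2, -0.32 for Ptbp3 and Mbnl2, and 0.22 for Hnrnpa2b1. None of these passed the threshold. Rbfox2 and Hnrnpd had only 1 bright probe set each, so their agreement could not be read. The plot of change by probe set shows them beside Celf2 and Mbnl3, whose bright probe sets all lay below 0.

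**Figure D4:**
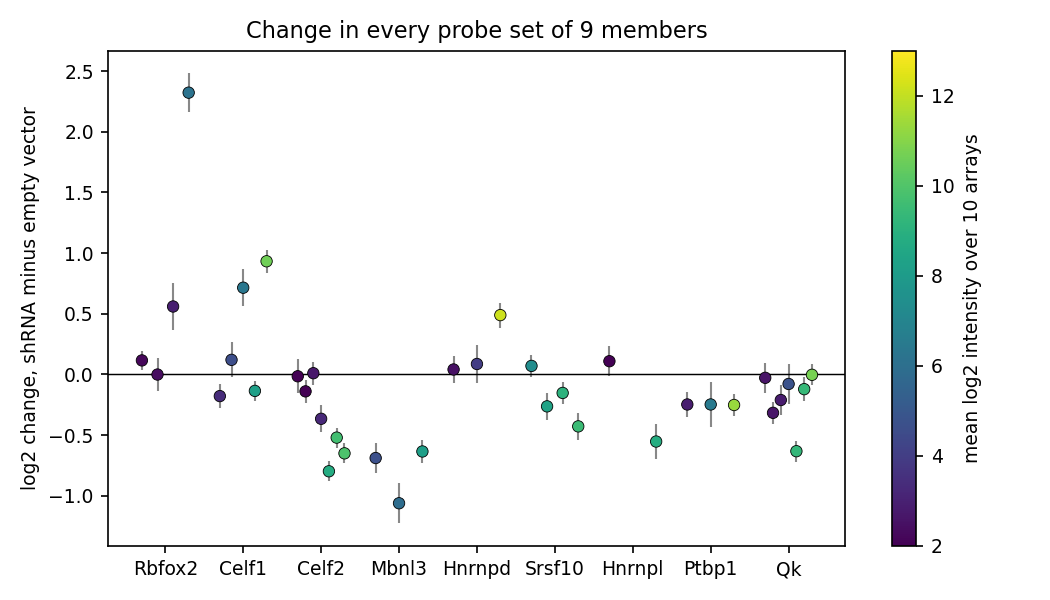
Log2 change (shRNA minus empty vector) in every probe set of 9 members, with the SE of the limma fit as bars and colour for the mean log2 intensity over 10 arrays; within a gene, probe sets run from dim to bright. Celf2 and Mbnl3 are below 0 in all bright probe sets, while Celf1 spans -0.14 to 0.93 and Qk -0.63 to 0.00 among the bright ones.

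The same direction in all 5 pairs was seen in 17 of the 36 members, 7 higher (Rbfox2 among them) and 10 lower. Among all genes 17.8% had that pattern, and among those with a mean log2 level above 5 it was 32.7%. The groups did not overlap for 6 members, all lower with the shRNA: Celf2, Mbnl3, Ptbp1, Srsf3, Srsf10 and Tra2b. That compares with 4.98% of all genes and 10.4% of those above the level. Only Celf2 and Mbnl3 of these 6 passed the threshold.

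Other genes of the splicing machinery were read by the same fit. Of 50 measured regulators outside the 38, 1 rose and 2 fell, 6%, beside 4.06% of all genes and 8.75% of brighter genes. Only 33 of the 50 had a mean log2 level above 5, and the 3 that passed were among them. The 6% thus mixes dim and bright genes and is no result about the list. Zranb2, an SR-related zinc finger protein, read 551, 408, 584, 522 and 525 with the shRNA and 771, 803, 799, 911 and 812 with the vector (log2 change -0.67, SE 0.10, adjusted p = 0.0101 by limma). Hnrnpdl, the close paralog of Hnrnpd, changed by -0.47 (SE 0.09, adjusted p = 0.0292), opposite in sign to Hnrnpd, and Hnrnph3 by 0.50 (SE 0.09, adjusted p = 0.0214). Zranb2 did not pass without pair 4 (adjusted p = 0.0547). With 1 pair left out, Hnrnpdl and Hnrnph3 passed only when that was pair 5, and they did not pass in the fit without the replicate block (adjusted p = 0.308 and 0.345). As the mean of its probe sets Hnrnpdl changed by -0.12 (adjusted p = 0.482). With the 3'/5' ratio added to the fit, Hnrnpdl changed by -0.24, Zranb2 by -0.65 and Hnrnph3 by 0.47, none past the threshold (adjusted p 0.605 to 0.868). The median change of these 50 genes was 0.03.

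Of 43 measured core spliceosome genes none passed in limma, where 4.06% of all genes and 8.75% of brighter genes passed. Their median change was -0.02. The lowest p belonged to Sf3a2, a U2 snRNP subunit (log2 change -0.33, adjusted p = 0.0541), and Prpf3, of the U4/U6 snRNP (-0.33, adjusted p = 0.0745). Of 10 measured genes of nonsense-mediated decay, which removes many alternatively spliced transcripts, none passed in limma either. There the lowest p belonged to Smg6, the endonuclease of the pathway (-0.37, adjusted p = 0.203), and Upf2 (-0.20, adjusted p = 0.219). Only 6 of the 10 decay genes had a mean log2 level above 5, and Smg6, at 3.77, did not.

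Among 8 kinases that phosphorylate splicing factors, 1 fell and none rose. That is 12.5%, beside 4.06% of all genes and 8.75% of those with a mean log2 level above 5, as all 8 had. Over 8 genes it is no result about the list. Prpf4b, a kinase of the tri-snRNP, read 384, 339, 347, 318 and 403 in shRNA samples 1 to 5. In vector samples 1 to 5 it read 796, 724, 727, 698 and 585. The groups did not overlap and limma gave a change of -0.98 on the log2 scale (SE 0.11, 1.97-fold, adjusted p = 0.0024), past the threshold without each pair in turn. The other Prpf4b probe sets above a mean log2 level of 5 changed by -1.09, -0.82 and -0.71, each past the threshold over all probe sets. With the 3'/5' ratio added to the fit, it changed by -0.73 (SE 0.17, adjusted p = 0.463). Srpk1, which phosphorylates SR proteins, averaged 296 ± 45.2 with the shRNA and 388 ± 60.5 with the vector (SD, n = 5) and did not pass (-0.39, adjusted p = 0.0534).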

How the data were processed

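Biotin-labelled RNA of 10 samples was hybridised to Affymetrix mouse arrays. The deposited values are probe set intensities made with RMA, per the submitters' processing notes; no version or settings were at hand. Their range, 1.30 to 32400, shows a linear scale, though RMA usually gives log2 values, and they were log2-transformed here with no pseudocount. RMA compresses large fold changes. No detection calls were used, and precision is set by how many arrays there are. Of 45101 probe sets, 64 controls were left out; 34945 of the rest had 1 gene symbol in the platform annotation, 932 several and 9160 none.

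Groups were compared with limma 3.58.1 in R 4.3.3 (lmFit, eBayes), blocked on sample number, over 18193 genes and Benjamini-Hochberg adjustment at 0.05; tests were two-sided. Other probe sets were read from the same fit over 45037 probe sets. The scripts were tested on simulated data. The labels pair the samples, and the deviations of same-numbered samples from their group means correlated at 0.600, 0.462, 0.339, 0.310 and 0.557 over 11215 bright probe sets. Some differently numbered samples correlated as well, such as shRNA 1 with vector 2 (0.579), shRNA 2 with vector 1 (0.428) and shRNA 3 with vector 4 (0.276). Between samples 1 and 2 of either group and samples 3 to 5 of the other, all correlations were negative (-0.470 to -0.180). Samples 1 and 2 thus stood apart from samples 3 to 5, and the pairing by number rests on the labels. Alternatives were an unpaired fit, a random block, other normalizations, trend and robust eBayes, the mean of probe sets, a filter on dim genes, the 3'/5' ratio added as a covariate, and each pair left out.

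The members, the lists and the 2 promoter motifs were chosen with earlier results of these data known. Named were all members, with values by array for those past the threshold and for the 4 largest changes that did not pass, and in each other list up to 4 genes past the threshold with the largest changes or, with under 2 of them, the 2 with the lowest p. Mbnl2, Ptbp2 and single probe sets were shown by array after their values were seen.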

Additional observations from a re-analysis of the deposited data

Results flagged for a closer look

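In 3 of 100 groups of 5 arrays examined, a single array stood apart from the rest by the size of its gap over the group's range; chance flags about 1 in 20. In the shRNA group, Ptbp2 read a log2 level of 6.746 in sample 5, against 6.058 to 6.151 in the other shRNA samples. In the same group Rbfox2 probe set 1418246_at read 2.884 in sample 5, against 2.167 to 2.302 in the others. In the vector group Prpf3 read 7.988 in sample 4, against 7.877 to 7.891 in the others.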

How the results depend on the processing

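Among the members, 2 were lower and 3 higher in the fit described; every count of higher members here includes Rbfox2, chosen for its change, except the 0 with the 3'/5' ratio. With trend and robust eBayes the counts were 7 lower and 5 higher, among genes above a mean log2 level of 5 they were 5 lower and 3 higher, and with the mean of probe sets 2 lower and 1 higher. With the 3'/5' ratio added to the replicate block they were 0 and 0, and only 2 genes of all passed, both lower; the SE of Celf1 was then 0.18, against 0.09 in the fit described. Leaving out 1 pair gave 2 to 4 lower and 2 higher. Without the replicate block 2 members were lower and 2 higher (Hnrnpd was lost), and with a random block 3 and 2. The Rbfox2 change was 0.75 as the mean of its probe sets, 1.71 with the covariate, 2.16 to 2.48 without 1 pair, and -0.000315, 0.12 and 0.56 in its other probe sets. Its SE was 0.53 without the replicate block and 0.16 with it; the change itself, 2.32, is the same in both fits by construction.

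For all genes (739, with 543 lower and 196 higher), trend and robust eBayes called 1497 (1044 lower, 453 higher), the filter on dim genes 1305 of the 6721 tested (915 lower, 390 higher), the covariate 2 (2 lower, 0 higher), and leaving out 1 pair 243 to 929 (199 to 656 lower, 44 to 273 higher). Without the replicate block 95 genes were higher, and after quantile normalization 309, beside 382 lower, a more even split. Of the other regulators, 1 was lower and 0 higher without the replicate block and with a random block, 0 and 0 with the covariate, 0 to 2 lower and 0 to 1 higher without 1 pair, and 2 higher with the mean of probe sets. Core spliceosome genes numbered 1 lower without the replicate block, with a random block, with median centring and with the mean of probe sets, 4 with trend and robust eBayes and 3 among brighter genes. Kinases numbered 2 lower with median centring, trend and robust eBayes, the mean of probe sets and the filter, and 0 with the covariate. Decay genes numbered 1 lower with the mean of probe sets and 0 to 1 without 1 pair. The ratio difference was 0.0650 to 0.109 without 1 pair. Of the 18 other named genes carried through the alternatives none changed direction, but single probe sets were an alternative for Rbfox2 only. Rbfox2 read just below 0 in 1418246_at, as given above. Among the members of those 18 genes, bright probe sets of Celf1 (-0.14), Hnrnpa1 (-0.06) and Srsf10 (0.07) differed in sign from the brightest of the same gene. Members outside the 18 did so too, such as Hnrnpu (-0.31 against 0.13), Srsf1 (-0.29 against 0.04) and Hnrnpa2b1 (0.22 against -0.02). Except where values show it, the cause of these shifts was not tested. Dim probe sets near the Trpn controls can hardly show a fall.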
